A study of Mus musculus with 28 samples.

Results

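RNA from P19 cells collected on day 2, after MS-275, was set against RNA from P19 cultures collected on day 8 as neurons. The comparison asked how close the genes that the drug raised came to their level in the neuronal culture, and which genes of that culture remained absent. It took 4 of the 28 samples of the series by their labels, 2 RNA libraries per group. The 2 day 2 libraries that received only the solvent DMSO served as the background, and all 10 RNA libraries of the series shared 1 fit. P19 is an established mouse embryonal carcinoma line, pluripotent in culture, and the labels give every sample here the cell type embryonal carcinoma cell.

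Both day 2 groups were grown for 2 days with 1 µM retinoic acid in MEM α with 10% fetal bovine serum, and the labels call them neural stem and progenitor cells. After the first 24 hours the drug group received MS-275, as 1 µL from a 10 mM stock, and the control group 1 µL of DMSO. The day 8 group had 4 days of 1 µM retinoic acid and then, once dissociated, 4 days on poly-D-lysine in DMEM/F12 with 2% B27, without the drug. Drug, time, length of retinoic acid, medium and replating therefore differed together between MS-275 and day 8, and their effects cannot be told apart. The series describes the 2 libraries of a group as biological replicates. Whether they were cultured on separate days is not stated there, so the p-values measure the spread between these libraries, which may be technical.

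MS-275, also called entinostat, inhibits the class I histone deacetylases, enzymes that take acetyl groups off histone tails. Acetylated histones are a feature of active promoters, and inhibitors of these enzymes are known to raise many silent genes, including genes that the repressor REST keeps off outside neurons. A neuron is built in layers: proneural transcription factors commit the progenitor, cytoskeletal proteins such as the tubulin Tubb3 and the tau protein Mapt shape the axon, and vesicle proteins, transmitter transporters, receptors and channels equip the synapse. Retinoic acid directs P19 cells into neural fates and switches on Hox genes in a fixed order along their clusters.

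The promoters of 4 genes are shown because the genes stand for the 4 outcomes described below. Hoxa9 was at the day 8 level with MS-275, and Cldn6 was present with MS-275 and nearly without RNA at day 8. Tubb3 was present with DMSO, lower with MS-275 and far below day 8 in both day 2 groups. Slc17a6 was close to absent with MS-275. The sequences are from RefSeq, build GRCm38.p6, and run 5′ to 3′ on the gene's strand up to the base before its annotated start. They cover chr6:52227371-52227620 (minus strand) for Hoxa9, chr17:23679115-23679347 (plus strand) for Cldn6, chr8:123411303-123411552 (plus strand) for Tubb3 and chr7:51621580-51621829 (plus strand) for Slc17a6. The Hoxa9 window also lies over the predicted gene Gm52902 and the Slc17a6 window over Gm33136. Capitals mark a GC box, GGGCGG on either strand, the core of the site of Sp1-type factors.
Hoxa9: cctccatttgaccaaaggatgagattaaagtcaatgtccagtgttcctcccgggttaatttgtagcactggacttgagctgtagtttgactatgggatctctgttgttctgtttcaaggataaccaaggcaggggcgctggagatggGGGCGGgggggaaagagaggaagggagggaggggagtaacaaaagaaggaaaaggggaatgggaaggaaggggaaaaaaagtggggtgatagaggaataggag
Cldn6: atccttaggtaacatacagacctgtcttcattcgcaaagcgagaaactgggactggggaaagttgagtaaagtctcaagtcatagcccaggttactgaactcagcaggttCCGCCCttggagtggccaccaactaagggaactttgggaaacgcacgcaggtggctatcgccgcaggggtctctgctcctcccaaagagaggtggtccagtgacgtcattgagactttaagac
Tubb3: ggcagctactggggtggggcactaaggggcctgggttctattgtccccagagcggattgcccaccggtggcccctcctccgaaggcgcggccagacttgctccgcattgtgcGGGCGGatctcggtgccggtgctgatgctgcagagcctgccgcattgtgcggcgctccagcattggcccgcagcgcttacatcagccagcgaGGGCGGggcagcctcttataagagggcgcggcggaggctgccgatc
Slc17a6: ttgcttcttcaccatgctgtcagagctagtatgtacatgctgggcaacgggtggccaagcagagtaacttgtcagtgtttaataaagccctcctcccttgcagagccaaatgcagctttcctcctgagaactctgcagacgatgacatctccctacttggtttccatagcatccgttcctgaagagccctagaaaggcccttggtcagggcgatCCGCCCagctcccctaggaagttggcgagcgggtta

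A GC box stood in each of the 4 windows, 2 of them in that of Tubb3. It occurs in 32.7% of all 32851 windows of the same design. The E-boxes CAGCTG, in 13% of all windows, and CAGATG, in 14.4%, were searched on both strands and matched none of the 4. The Tubb3 window held 21 CpG dinucleotides, Cldn6 8, Slc17a6 7 and Hoxa9 3, against a median of 6 over all windows (quartiles 2 and 16). These matches describe letters in a window and show no binding.

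Total estimated counts were 18115926 to 19586374 per library. MS-275 libraries held 16493 and 16451 genes with at least 10 counts, day 8 libraries 15835 and 15889. Replicates differed by more than counting error, by a chi-square per degree of freedom of 5.31 for MS-275 and 6.28 for day 8. The 9 neuron markers summed to 409 and 429 CPM (counts relative to library size) with MS-275, 3673 and 3450 at day 8 and 365 and 336 with DMSO. All 9 reached 5 CPM at day 8, and 8 of 9 did so with MS-275. The day 8 cultures also held all 7 progenitor markers at 5 CPM or more, with sums of 1529 and 1535 CPM against 869 and 819 with MS-275. They held all 6 fibroblast markers, with sums of 1208 and 1252 CPM against 524 and 486 with MS-275 and 28.1 and 30.7 with DMSO. Blood, muscle and endoderm markers each summed to under 10 CPM in these libraries. The 6 pluripotency markers summed to 123 and 129 CPM with MS-275 against 51.3 and 60.4 at day 8, and the 4 epithelial markers to 281 and 281 against 13.1 and 13.5. The part of other cell types in the results below was not tested. In bulk RNA, fewer cells of a type and less RNA per cell cannot be told apart.

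Between MS-275 and day 8, 13025 of 17789 tested genes were called, 73.2% of them, at an edgeR adjusted p under 0.05. By TMM scaling 6523 genes were higher with MS-275 (36.7%) and 6502 lower (36.6%), where upper-quartile factors gave 7700 and 5412 and no factors 7069 and 5936. With TMM, 3528 and 3246 of these differed at least 2-fold (19.8% and 18.2% of genes tested). The median log2 difference over all tested genes was 0.01. With upper-quartile scaling that median moved to 0.19, and log2 differences of that size are read here as no difference. Groups did not overlap for 15148 genes (85.2%), and the 95% interval lay inside 2-fold for 7532 (42.3%). Against DMSO, the same MS-275 libraries had 11256 genes called (63.3%), 5677 genes called higher (31.9%) and 5579 lower (31.4%). At least 2-fold changes were mostly rises there, with 3384 genes higher (19%) and 1075 lower (6.04%). DMSO against day 8 called 11726 genes (65.9%), and day 8 against day 0 called 13373 (75.2%), 2568 of them at least 4-fold higher (14.4%). These comparisons share libraries, so their values are given side by side only.

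The drug-induced genes were those called at least 2-fold higher with MS-275 than with DMSO and reaching a mean of 1 CPM with MS-275, 2870 in all. Most of them were called above the neuronal culture with MS-275. These were 1998 genes, 69.6% of the drug-induced against 36.7% of all tested genes, and 1779 of them were at least 2-fold above. Another 496 were called below and 376 were not called. The MS-275 level exceeded 2 times the day 8 level for 1794 genes, lay between 0.5 and 2 times for 732 and under 0.5 times for 344. The median drug-induced gene stood at 317% of its day 8 mean CPM with MS-275 (quartiles 114% and 931%) and at 65.0% with DMSO. The 1998 genes called above already had a median of 108% with DMSO (quartiles 58.8% and 211%). Many of them thus stood near or above day 8 without the drug. For 404 drug-induced genes the 95% interval of the difference lay wholly inside 2-fold in either direction. MS-275 libraries both chose these genes and give their level, so the classes are a description.

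**Figure D1:**
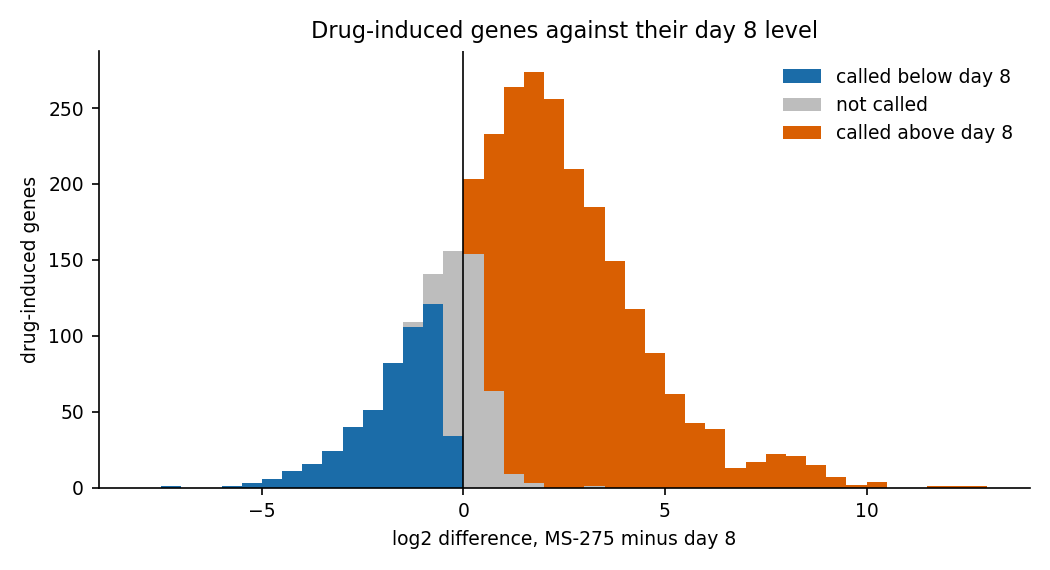
Number of drug-induced genes (vertical axis) by their log2 difference, MS-275 minus day 8 (horizontal axis, bins of equal width), with the 3 classes stacked. The 1998 genes called above day 8 form the bulk to the right of 0, the 376 genes not called lie around 0, and the 496 genes called below lie to the left.

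Drug-induced genes moved both ways between day 0 and day 8. Of the drug-induced genes, 1185 were called lower at day 8 than in the undifferentiated day 0 cells, and their median level with MS-275 was 695% of day 8. Another 979 were called higher at day 8 than at day 0, and their median was 83.4%. A stricter set of 1512 genes, called neuronal culture genes here, was at least 4-fold higher at day 8 than at day 0 with a mean of 5 CPM or more at day 8. Drug-induced genes in this set numbered 395, which is 13.8% of the drug-induced and 26.1% of the neuronal culture genes. Over all 17789 tested genes, 2870 were drug-induced and 1512 were neuronal culture genes. The median of the 395 was 8.92% of day 8 with DMSO and 36.9% with MS-275, a rise whose direction is fixed by their choice as drug-induced. Of these 395, 310 were still called below day 8, 44 were not called and 41 were called above, and 87 had an interval inside 2-fold.

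The genes that reached the day 8 level were of mixed kinds. Hoxa9, a homeobox gene of posterior identity, had 12.1 and 10.6 CPM with MS-275, 8.94 and 11 at day 8 and 0.157 and 0 with DMSO. The groups overlapped, and the log2 difference was 0.19 (SE 0.18, 95% interval −0.20 to 0.57, edgeR adjusted p = 0.361). Pax6, a transcription factor of neural progenitors, had 42.3 and 45.8 CPM with MS-275 and 45.2 and 45.5 at day 8, against 16.8 and 15.6 with DMSO. Its log2 difference from day 8 was −0.04 (interval −0.28 to 0.19, edgeR adjusted p = 0.745), and the groups overlapped. Sox3, another progenitor factor, was chosen after its values were seen: it had 69.9 and 65.1 CPM with MS-275 and 65.8 and 64.3 at day 8, against 32.2 and 29.2 with DMSO. Its difference of 0.05 was called only with upper-quartile scaling, at 0.23.

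Col1a1, which encodes the main chain of fibroblast collagen, had 372 and 342 CPM with MS-275, 322 and 339 at day 8 and 3.30 and 3.35 with DMSO. The MS-275 libraries stood just above both day 8 libraries, by a log2 difference of 0.11 (SE 0.08, edgeR adjusted p = 0.238). The gene was called without scaling factors (0.20) and with upper-quartile factors (0.29). Its partner Col3a1 was raised over DMSO too, but only to 3.67 and 4.23 CPM, against 569 and 579 at day 8, a log2 difference of −7.18 (SE 0.12, edgeR adjusted p = 1.48e-17). Nrgn, a calmodulin-binding protein of the postsynapse, had 16.0 and 11.9 CPM with MS-275 and 15.1 and 11.8 at day 8, with DMSO at 0.419 and 0.512. The kinase Sgk1 (26.2 and 22.6 CPM against 22.5 and 22.9) and the Groucho-type corepressor Tle2 (10.2 and 12.4 against 12.2 and 9.48) also overlapped their day 8 values. The call for Sgk1 appeared with upper-quartile scaling (0.28). Dgki, a diacylglycerol kinase, had 7.73 and 7.96 CPM against 12.0 and 7.73, and was called lower when day 8 replicate 2 was left out (−0.60).

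Genes carried partway to day 8 included the tau gene Mapt and genes of other kinds. Mapt, on chromosome 11 from 104229409 to 104332090, had 74.0 and 72.7 CPM with MS-275 and 1.1 and 1.3 with DMSO. Day 8 libraries held 809 and 709 CPM, so MS-275 stood at 9.67% of day 8 and DMSO at 0.159% (log2 difference of MS-275 from day 8 −3.37, SE 0.06, edgeR adjusted p = 3.54e-16). Tmem130, a membrane protein, stood at 11.9% of day 8 with MS-275 and 0.392% with DMSO, and Ablim3, an actin-binding protein, at 20.3% and 0.265%. S1pr3, a receptor for sphingosine 1-phosphate, reached 38.8% and Lmcd1, a LIM-domain protein, 41.2%, from 1.23% and 0.879% with DMSO. These 5 genes were named by rule for large drug responses below day 8. Every MS-275 library lay between both DMSO and both day 8 libraries, an order that follows largely from that choice.

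Other drug responses overshot the culture. Padi2, a peptidylarginine deiminase, had 46.7 and 38.9 CPM with MS-275, 0.362 and 0.477 at day 8 and 0.105 and 0 with DMSO (log2 difference from day 8 6.65, SE 0.525, edgeR adjusted p = 2.17e-11). Thy1, a surface glycoprotein of mature neurons and of other cells, had 19.96 and 19.5 CPM with MS-275 against 1.29 and 2.23 at day 8 (log2 3.48, SE 0.24, edgeR adjusted p = 3.39e-10). Day 8 held less of it than the day 0 cells, at a mean of 11.1 CPM. Cldn6, a tight junction protein of early epithelia, had 59.7 and 48.8 CPM with MS-275, 0 and 0.265 at day 8 and 0.366 and 0.341 with DMSO. Its log2 difference from day 8 was 8.63, and ranged from 7.66 without day 8 replicate 1 to 13.00 without day 8 replicate 2, where the remaining library had no counts. Krt18, Cdh1, Esrp1 and Esx1 lay in the same direction and are given below.

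The panel plot shows these outcomes next to each other for 28 genes.

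**Figure D2:**
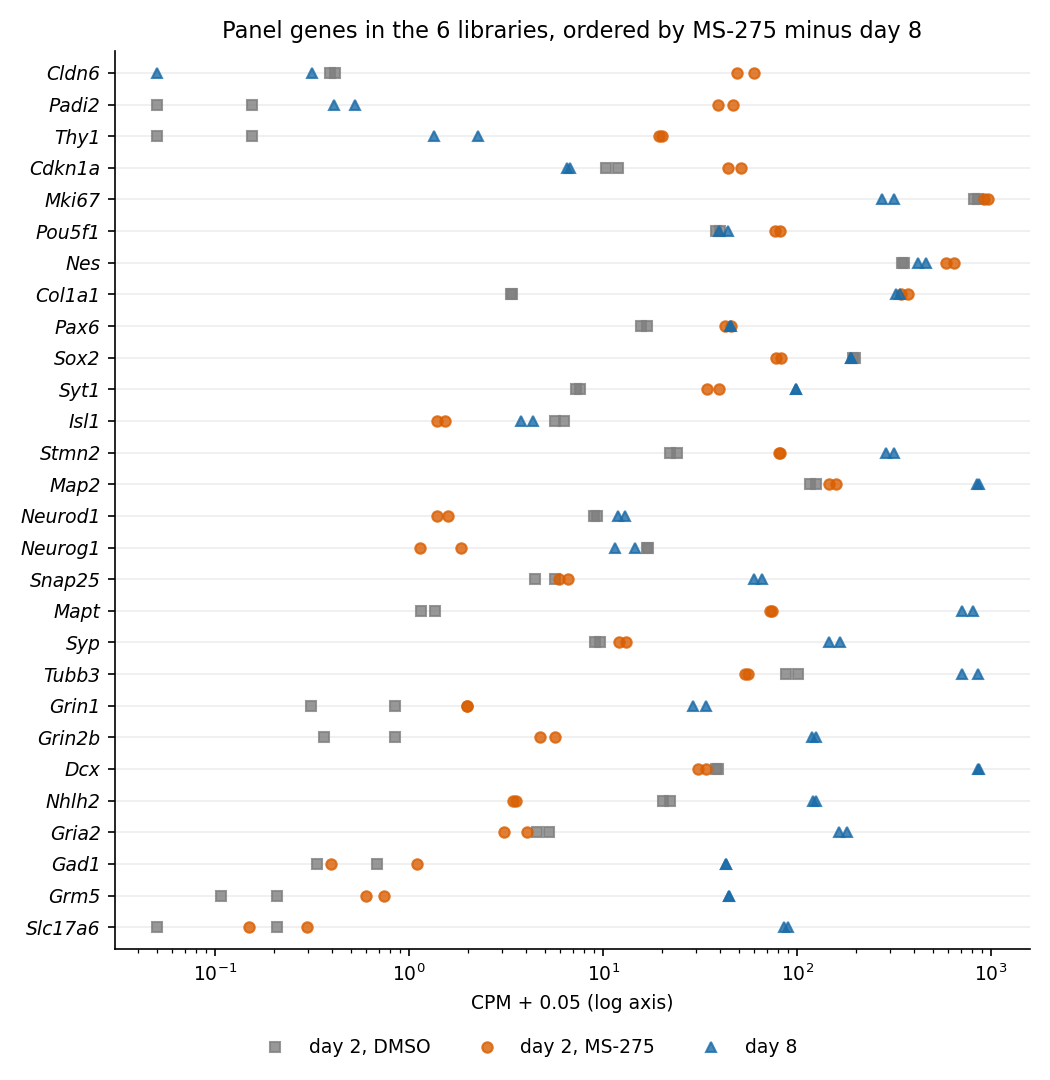
CPM plus 0.05 on a log axis (horizontal) for the 28 panel genes (vertical), with each point 1 library: grey squares DMSO, orange circles MS-275, blue triangles day 8. Cldn6, Padi2 and Thy1 at the top have MS-275 far to the right of day 8, Col1a1 and Pax6 have both together, and the neuronal genes below have day 8 far to the right.

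Set against the whole neuronal culture, the drug moved many genes, in both directions, and the median level of the set little. Of the 1512 neuronal culture genes, 41 stood under 1% of day 8 with MS-275, 343 between 1% and 10%, 773 between 10% and 50%, 320 between 50% and 200% and 35 above 200%. With DMSO the same classes held 80, 395, 692, 301 and 44 genes. The median was 23.5% of day 8 with MS-275 (23.1% and 23.8% in its libraries) and 20.3% with DMSO. Neither day 2 group took part in choosing these genes, so MS-275 against DMSO can be tested on them: 620 were called higher with MS-275, 41.0% of them against 31.9% of all genes, and 499 were called lower, 33.0% against 31.4%. Changes of at least 2-fold took 426 genes up, from a median of 8.03% of day 8 to 34.2%. They took 278 genes down, from 40.8% to 12.8%. As shares these were 28.2% up, against 19% of all tested genes, and 18.4% down, against 6.04%. The other 808 had medians of 23.7% with MS-275 and 23.5% with DMSO. This split used the contrast of MS-275 with DMSO itself, so the direction of the shifts in these medians is fixed by it. Against day 8, 1331 were called lower, 90 higher and 91 not, where the day 8 libraries both chose the genes and set the level.

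**Figure D3:**
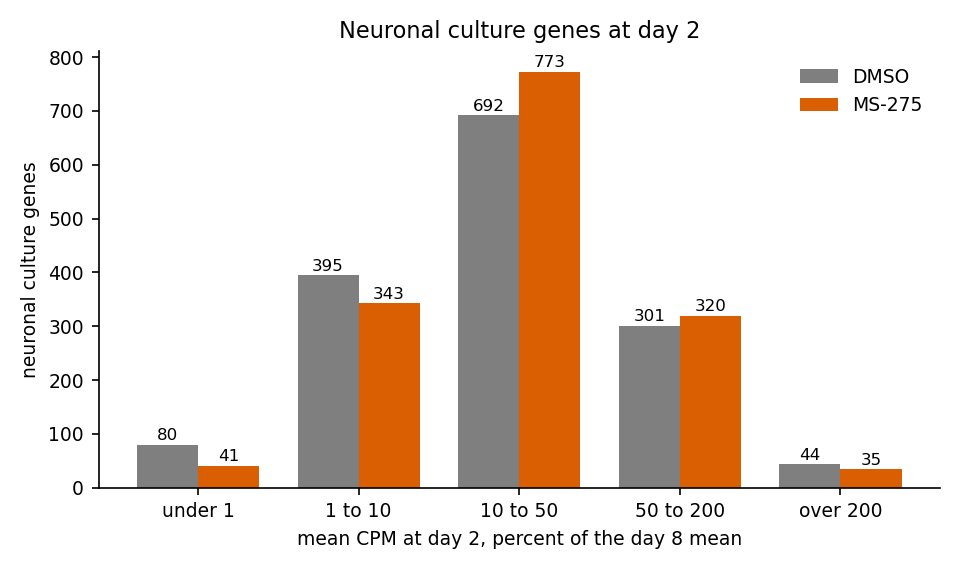
Number of the 1512 neuronal culture genes (vertical axis, from 0) by their mean CPM at day 2 in percent of the day 8 mean (horizontal axis, 5 classes), grey for DMSO and orange for MS-275. The class under 1% holds 80 genes with DMSO and 41 with MS-275, the class from 10% to 50% holds 692 and 773, and the outer class above 200% holds 44 and 35.

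Proneural and neuronal transcription factors were the lowest against day 8 among the 28 gene lists by their median and stood lower with MS-275 than with DMSO. Of 31 tested, 27 were called lower than day 8, 1 was called higher and 3 were not called, with a median log2 difference of −4.42 (−2.93 for DMSO). The median member stood at 4.02% of day 8 with MS-275 and at 13.1% with DMSO, and against DMSO 17 members were called lower and 9 higher. Nhlh2, a basic helix-loop-helix factor of young neurons, had 3.37 and 3.48 CPM with MS-275, 22.1 and 20.4 with DMSO and 120 and 125 at day 8 (log2 difference from day 8 −5.16, SE 0.13, edgeR adjusted p = 1.60e-15). The MS-275 libraries were the lowest of the 3 groups. Neurog1, which commits progenitors to a neuronal fate, had 1.09 and 1.79 CPM with MS-275 and 17.1 and 16.8 with DMSO, and its day 8 values of 11.5 and 14.5 lay below DMSO. Neurod1, which acts downstream in the same cascade, had 1.53 and 1.34 CPM against 11.9 and 13 at day 8 and 8.90 and 9.27 with DMSO. Isl1, a motor neuron factor, had 1.49 and 1.34 CPM against 4.29 and 3.71 at day 8, and DMSO stood above both.

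The repressors Scrt1 and Scrt2, which neurons express as they leave the cycle, stood at 0.656% and 0.465% of day 8, Scrt1 at 0.941 and 0.697 CPM against 137 and 113. The log2 difference of Scrt2, −7.73, ranged from −8.90 without MS-275 replicate 1 to −7.09 without MS-275 replicate 2. Myt1l, a zinc finger factor that keeps neuronal identity, went the other way against DMSO and still stayed low. Like Neurod2, it was chosen after its values were seen. Myt1l had 3.17 and 4.28 CPM with MS-275, 0.681 and 0.967 with DMSO and 90.3 and 95.1 at day 8. Neurod2 had 6 counts over both MS-275 libraries and none with DMSO, too few to read as a rise, and 16.3 and 14.9 CPM at day 8. Lhx1, a LIM homeobox factor of spinal interneurons, was the member called higher than day 8, with 212 and 205 CPM against 70.1 and 66.5 (log2 1.61, SE 0.08, edgeR adjusted p = 1.88e-11). DMSO had 140 and 136.

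Cytoskeletal and growth cone genes were lower than day 8 in 28 of 30 cases, and 2 were higher, with a median log2 difference of −2.30 (20.4% of day 8, against 13.6% with DMSO). Tubb3, on chromosome 8 from 123411553 to 123422015, encodes the neuronal β-tubulin and had 55.6 and 53.7 CPM with MS-275, 101 and 87.1 with DMSO and 851 and 704 at day 8. MS-275 stood below DMSO as well as below day 8 (log2 difference from day 8 −3.83, SE 0.08, edgeR adjusted p = 1.12e-15). Dcx, a microtubule protein of migrating neurons, had 30.8 and 33.9 CPM with MS-275, 38.2 and 39.0 with DMSO and 865 and 856 at day 8 (log2 −4.73, SE 0.07, edgeR adjusted p = 1.71e-17). Map2, of dendrites, had 146 and 159 CPM against 845 and 870, and Stmn2, of growth cones, 81.8 and 80.3 against 317 and 287, with DMSO at 24.0 and 22.0. Its family members Stmn3 and Stmn4 reached 3.87% and 2.67% of day 8. Stmn2 and Stmn4 were called higher than with DMSO and Stmn3 lower. Prph, the intermediate filament of peripheral neurons, had 54.7 and 42.1 CPM with MS-275 and 1.19 and 0.742 at day 8 (log2 5.63, SE 0.28, edgeR adjusted p = 1.59e-13). The day 0 cells had 36.1 CPM of Prph on average. The other member called higher was Nefh, a neurofilament chosen after its values were seen, at 433% of day 8.

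Genes of vesicle release were lower than day 8 in 31 of 33 cases and higher in 1, with a median log2 difference of −2.37 (19.3% of day 8, 12.9% with DMSO). Against DMSO, 19 were called higher and 5 lower. Syt1, the calcium sensor of release, came nearest of the panel's vesicle genes, with 34.2 and 39.4 CPM against 99.1 and 98.0 at day 8 and 7.22 and 7.51 with DMSO (log2 difference from day 8 −1.42, SE 0.08, edgeR adjusted p = 1.30e-10). Snap25, of the fusion machinery, had 5.84 and 6.52 CPM with MS-275, 5.60 and 4.38 with DMSO and 65.9 and 60.2 at day 8. Syp, a vesicle membrane protein, had 13.1 and 11.9 CPM, 9.58 and 8.98 with DMSO and 166 and 145 at day 8. Scg2, a granin of dense-core vesicles, stood at 0.824% of day 8 and Rab3c, a vesicle GTPase, at 2.03%. Syt13, an atypical synaptotagmin, was the member called higher, with 38.7 and 36.0 CPM against 18.9 and 17.5.

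Postsynaptic scaffolds and kinases lay closer to day 8 than the vesicle genes by their median, −1.16 on the log2 scale (45.4% of day 8, 24.9% with DMSO), with 15 of 20 called lower and 2 higher. Their difference from the vesicle genes was not tested. The scaffold Shank1 had 15.6 and 17.1 CPM with MS-275, below DMSO (25.3 and 27.0) and day 8 (180 and 160). Dlg2 stood at 2.98% of day 8 and Dlgap1 at 7.84%. Homer1, chosen after its values were seen, had 47.2 and 45.4 CPM against 49.7 and 55.2, and was called only when day 8 replicate 1 was left out (−0.24). Arc, an immediate early gene of synapses, was called higher, with 3.22 and 3.29 CPM against 1.08 and 1.17.

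Receptors for transmitters were lower than day 8 in 37 of 46 cases and higher in 4, with a median log2 difference of −2.13 (22.9% of day 8, 14.6% with DMSO). The AMPA receptor subunit Gria2 had 4.01 and 3.04 CPM with MS-275, 5.18 and 4.49 with DMSO and 164 and 181 at day 8 (log2 −5.61, SE 0.14, edgeR adjusted p = 4.69e-16). Grin2b and Grin1, subunits of the NMDA receptor, were raised over DMSO and stayed low. Grin2b had 5.60 and 4.68 CPM against 120 and 125 at day 8, and Grin1 1.93 and 1.94 against 34.0 and 29.0. With DMSO, Grin2b had 0.314 and 0.796 CPM and Grin1 0.262 and 0.796. The metabotropic receptor Grm5 had 0.693 and 0.547 CPM against 44.4 and 44.3. Another NMDA subunit, Grin2c, typical of cerebellar granule cells, was called higher, with 2.23 and 2.59 CPM against 0.310 and 0.371. Grin2d, named after its values were seen, had 5.05 and 6.57 CPM against 12.8 and 10.7, 49.6% of day 8.

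Transmitter synthesis and transport split within the list. Of 22 genes tested, 11 were called lower than day 8, 7 higher and 4 not, and against DMSO 14 were called higher and none lower. The median was 41.9% of day 8 with MS-275 and 6.62% with DMSO. The vesicular glutamate transporters lay on both sides. Slc17a6, the form of the early brain and spinal cord (chromosome 7, 51621830 to 51671126), had 0.099 and 0.249 CPM with MS-275, 7 counts in all, against 85.6 and 89.5 at day 8. DMSO held 3 counts. Its log2 difference of −8.92 ranged from −9.69 without MS-275 replicate 2 to −8.42 without MS-275 replicate 1. Slc17a7, the form of the cortex (chromosome 7, 45163921 to 45176139), had 48.0 and 45.4 CPM with MS-275, 5.03 and 5.23 with DMSO and 2.12 and 1.38 at day 8 (log2 4.73, SE 0.20, edgeR adjusted p = 2.60e-13). Slc17a8 had 0.149 and 0.299 CPM with MS-275 against 2.95 and 2.70 at day 8, and did not pass the test against DMSO. Slc17a7 and Slc17a8 were chosen after their values were seen, as were Gad2, Slc32a1, Slc6a5, Ddc, Slc18a3 and Slc5a7 of this list.

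The enzymes that make GABA were far below day 8: Gad1 had 0.347 and 1.04 CPM against 43.1 and 42.9, and Gad2 0.297 and 0.199 against 13.1 and 13.7. The Gad1 difference of −5.94 ranged from −6.93 without MS-275 replicate 2 to −5.35 without MS-275 replicate 1. Slc32a1, which loads GABA and glycine into vesicles, had 3.57 and 2.69 CPM against 18.2 and 14.0, and the glycine transporter Slc6a5 1.44 and 1.04 against 24.3 and 23.4. Both were raised over DMSO, in which Slc6a5 had no counts. The synthesizing enzymes did not pass the test against DMSO (edgeR adjusted p = 0.338 for Gad1 and 0.723 for Gad2). Ddc, an enzyme of dopamine and serotonin synthesis, had 25.9 and 28.4 CPM against 5.74 and 7.42 at day 8. The acetylcholine genes Slc18a3 (7.38 and 5.92 CPM against 3.10 and 2.38) and Slc5a7 (5.79 and 4.58 against 1.03 and 0.424) were higher than day 8 too. The log2 difference of Slc5a7, 2.82, ranged from 2.33 without day 8 replicate 2 to 3.61 without day 8 replicate 1. The peptide gene Sst stood at 0.984% of day 8.

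Voltage-gated channels were lower than day 8 in 33 of 42 cases and higher in 2, with a median log2 difference of −1.40 (37.9% of day 8, 14.1% with DMSO). Against DMSO, 27 were called higher and 3 lower, and 20 of the 42 were drug-induced genes, against 2870 of all 17789 tested genes. Scn3b, a sodium channel β subunit chosen after its values were seen, had 6.64 and 4.43 CPM with MS-275, 1.20 and 0.853 with DMSO and 109 and 104 at day 8. The calcium channel Cacna1g, chosen the same way, had 246 and 250 CPM against 271 and 269 (edgeR adjusted p = 0.0654, called when either day 0 library was left out), with DMSO at 165 and 160. The potassium channels Kcnma1, Kcnb2 and Kcnd2 stood at 2.98%, 4.39% and 5.09% of day 8, and none was called against DMSO. Scn9a, the sodium channel of pain-sensing neurons, was above day 8 with 24.1 and 23.8 CPM against 9.10 and 13.7.

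Adhesion and axon guidance genes were lower than day 8 in 34 of 39 cases and higher in 3, with a median log2 difference of −2.05 (24.1% of day 8, 10.9% with DMSO). Chl1, an adhesion molecule of the L1 family, had 2.48 and 2.74 CPM against 160 and 166 at day 8 (log2 −5.96, SE 0.13, edgeR adjusted p = 2.87e-16). Lrrc4, a synaptic adhesion protein, had 0.396 and 0.747 CPM with MS-275, 58.1 and 49.1 with DMSO and 36.3 and 33.6 at day 8. It was thus present at day 2 without the drug, at 153% of day 8, and at 1.63% with it. Its relative Lrrc4c was near 0 in both day 2 groups, with 0.347 and 0.299 CPM with MS-275 against 24.2 and 26.4 at day 8.

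**Figure D4:**
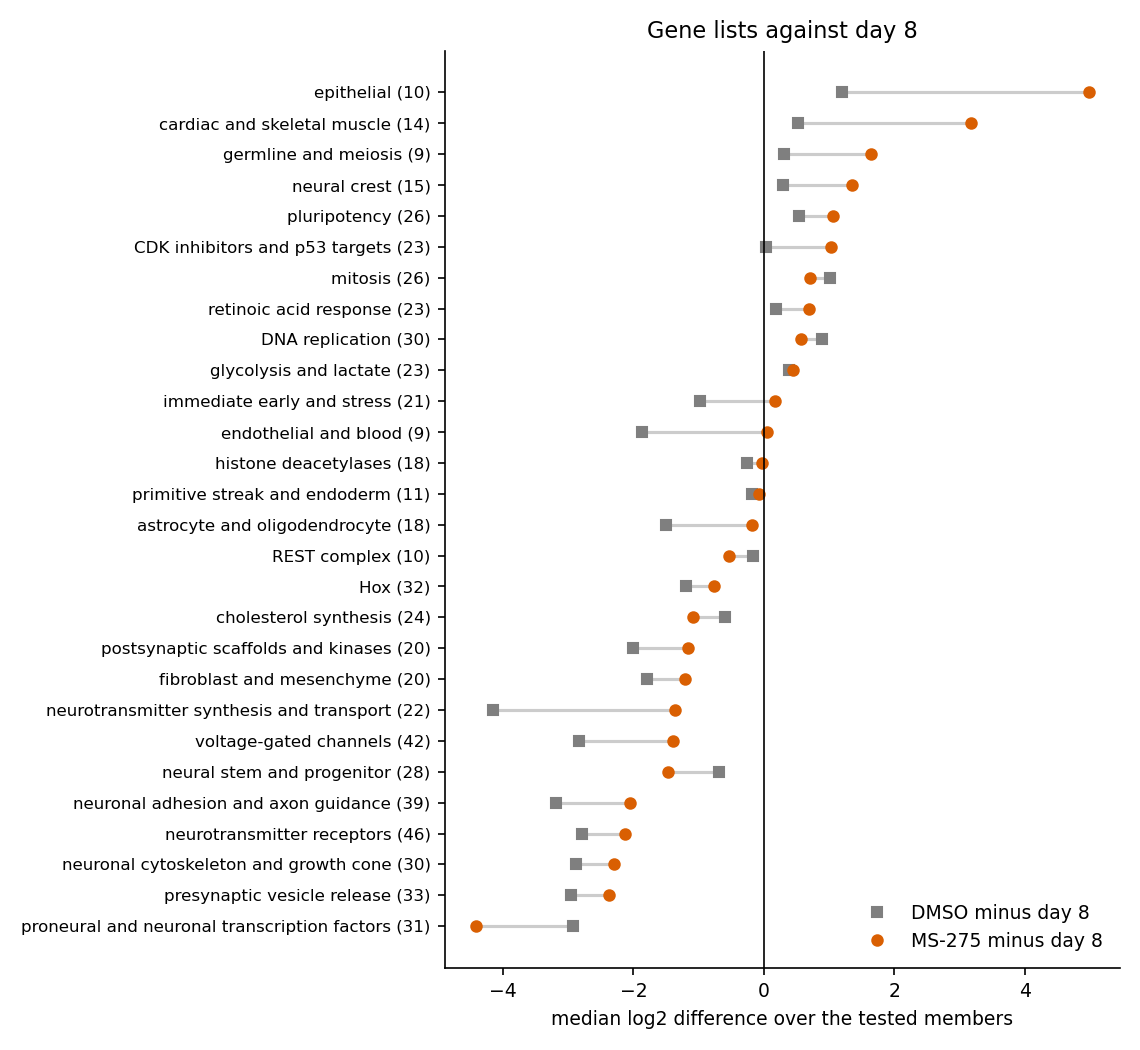
Median log2 difference from day 8 over the tested members (horizontal axis) for 28 gene lists (vertical, tested members in brackets), orange circles MS-275 and grey squares DMSO, both against the same day 8 libraries. Transcription factors of neurons lie lowest with MS-275, at −4.42, and left of DMSO. The other neuronal lists lie to the right of DMSO and left of 0, and epithelial and muscle genes lie farthest to the right.

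Absent genes were defined as neuronal culture genes with at most 3 counts over both MS-275 libraries. There were 18 of 1512 with MS-275 and 44 with DMSO, of which 14 were absent in both groups. Lamp5, a membrane protein of the endosome in some neurons, had no counts with MS-275 and 732 at day 8, at least 257-fold higher when the group is set to a floor of 3 counts. The others without counts were Lrrc17 (at least 105-fold), the astrocyte membrane protein Mlc1 (at least 86.8-fold) and the receptor Gpr22 (at least 73.4-fold). St18, a zinc finger factor related to Myt1l, had 3 counts against 1297 at day 8, a ratio of 456 (95% counting interval 156 to 2212), and 51 counts with DMSO. Agtr2, an angiotensin receptor, had 1 count against 788 (ratio 830, interval 149 to 32840) and Cacng2, an AMPA receptor partner, 1 against 743 (783, 140 to 30970). The extracellular matrix protein Tnr, the ubiquitin ligase March4, the long non-coding RNA Pantr1 and the peptide precursor Pnoc had 1 to 3 counts with MS-275 and 612 to 897 at day 8. Intervals and floors cover counting error only, and 3 counts in the pooled MS-275 libraries are the limit of what this depth can show.

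Of the genes absent with DMSO, 30 had more than 3 counts with MS-275. Crossing that limit is not a test against DMSO, and some differed by few counts, such as Slc17a6 with 3 counts with DMSO and 7 with MS-275. Examples taken after their values were seen were Hoxa9 at 114%, the urea transporter Slc14a1 at 27.1% and the oligodendrocyte and motor neuron progenitor factor Olig2 at 20.2%. Calb2, the calcium buffer calretinin, chosen the same way, had 1.04 and 1.29 CPM against 24.3 and 19.3, 5.36% of day 8, with 1 count in DMSO. The remaining genes ranged down to 0.199% for Slc17a6. The 4 genes absent with MS-275 and not with DMSO held between 4 and 51 counts with DMSO, the highest being St18.

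In the other direction, 36 genes with at least 5 CPM with MS-275 had at most 3 counts at day 8. Of these, 33 were drug-induced, against 2870 of all 17789 tested genes, a count helped by choosing genes high with MS-275. Cyp1a1, a detoxifying cytochrome, had 42.1 and 47.6 CPM with MS-275 and no counts at day 8, at least 572-fold higher, with DMSO at 16.2 and 16.4. Stra8, a retinoic acid target that starts meiosis, had 39.2 and 36.1 CPM and no counts at day 8 (at least 480-fold), with DMSO at 2.30 and 2.22. The secreted phospholipase Pla2g1b (at least 296-fold), the pore-forming gasdermin Gsdma (at least 102-fold), the thymic protease Prss16 (at least 92.4-fold) and the lens protein Grifin (at least 91.7-fold) followed. The antigen-presentation gene H2-Ob had 7.53 and 5.92 CPM with MS-275 and no counts at day 8 or with DMSO (at least 85.7-fold over day 8). Esx1, an X-linked homeobox gene of the placenta chosen after its values were seen, had 1672 counts against 3 (ratio 529, interval 181 to 2567). The epithelial splicing regulator Esrp1 had 365 against 1 (ratio 346, interval 61.8 to 13720).

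Progenitor genes were below day 8 as well. Of 28 tested, 23 were called lower, 3 higher and 2 not, and against DMSO 20 were called lower and 6 higher (median 36.1% of day 8 with MS-275, 62.3% with DMSO). Fabp7, a lipid carrier of radial glia (chromosome 10, 57784923 to 57788450), had 1.68 and 1.49 CPM with MS-275 against 406 and 387 at day 8 (log2 −7.96, SE 0.19, edgeR adjusted p = 1.71e-17), and 1.99 and 3.24 with DMSO. Hes5, the Notch target that keeps progenitors dividing, had 1.29 and 0.697 CPM against 43.9 and 43.4, with DMSO at 12.5 and 11.7. Sox2 had 78.1 and 82.7 CPM against 190 and 189 at day 8 and 193 and 199 with DMSO, and the MS-275 libraries were the lowest of the 3 groups. Nes, the progenitor filament, was above day 8, with 645 and 587 CPM against 419 and 462. The label of neural stem and progenitor cells was thus met by 5 of 7 markers at 5 CPM or more with MS-275, Fabp7 and Hes5 being the others.

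Hox genes lay on both sides of day 8. Of 32 tested, 9 were called higher than day 8, 20 lower and 3 not. Hoxb1, the first gene of its cluster, had 397 and 364 CPM with MS-275, 142 and 146 with DMSO and 3.98 and 5.46 at day 8 (log2 6.33, SE 0.13, edgeR adjusted p = 6.74e-17). Hoxb8, chosen after its values were seen with Hoxb9, had 121 and 109 CPM against 953 and 745, about equal to DMSO at 134 and 124. Hoxb9, its neighbour, had 87.5 and 87.7 CPM against 482 and 416, with DMSO at 8.95 and 9.33. Hoxb13 and Hoxd13, from the far end of the clusters, were above day 8, at 11.2 and 10.1 CPM against 0.362 and 0.583 and at 1.83 and 1.04 against 0.0517 and 0.0530. Hoxc6 had 5.35 and 5.28 CPM against 114 and 97.4, and did not pass the test against DMSO.

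The retinoic acid response was higher than day 8 in 14 of 23 genes and lower in 8 with MS-275, and in 12 and 6 with DMSO. Both day 2 groups still held retinoic acid, and its part in these values was not tested. Cyp26a1, which degrades it, had 574 and 523 CPM with MS-275, 547 and 575 with DMSO and 2.89 and 1.96 at day 8 (log2 7.81, SE 0.21, edgeR adjusted p = 1.38e-16). Crabp2, a retinoic acid carrier chosen after its values were seen, had 1025 and 942 CPM against 293 and 287, and its relative Crabp1 38.4 and 36.0 against 209 and 193. DMSO stood close to MS-275 for Cyp26a1 and Crabp2, and both were uncalled in that comparison.

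Genes of other lineages were mostly above the neuronal culture in some lists and not in others. Of all tested genes, 36.7% were called higher and 36.6% lower. Of 10 epithelial genes, 9 were called higher and none lower, with a median log2 difference of 4.99 (4.60 with the member that is at 0 in a group set to its bound). Krt18, a keratin of simple epithelia, had 52.6 and 55.5 CPM with MS-275, 10.1 and 9.44 with DMSO and 0.620 and 0.583 at day 8 (log2 6.47, SE 0.33, edgeR adjusted p = 5.42e-14). Cdh1, the epithelial cadherin, chosen after its values were seen, had 79.2 and 77.7 CPM against 4.34 and 3.34, and 111 on average at day 0. Muscle genes were higher in 11 of 14 cases and lower in 2, such as Des with 8.42 and 7.47 CPM against 0.103 and 0.212. Neural crest genes were higher in 9 of 15 cases and lower in 5. Sox10 (12.9 and 15.4 CPM against 0.413 and 0.212) and Erbb3 (24.4 and 22.9 against 0.982 and 0.954) were higher, while Tfap2b stood at 3.46% of day 8. Fibroblast genes were higher in 4 of 20 cases and lower in 14, Dcn for example with 1.63 and 2.49 CPM against 51.9 and 54.8. Primitive streak and endoderm genes were higher in 4 of 11 cases and lower in 2. Endothelial and blood genes were higher in 3 of 9 cases and lower in 1, germline and meiosis genes higher in 5 of 9 and lower in none. Of 18 astrocyte and oligodendrocyte genes, 7 were higher and 9 lower.

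Pluripotency genes were higher than day 8 in 22 of 26 cases and lower in 2, with a median log2 difference of 1.06. Pou5f1, the core pluripotency factor, had 77.0 and 81.2 CPM with MS-275, 39.4 and 44.1 at day 8 and 40.0 and 38.0 with DMSO (log2 difference from day 8 0.92, SE 0.07, edgeR adjusted p = 1.48e-09). The day 0 mean was 1418 CPM. Dnmt3b, a DNA methyltransferase of the early embryo chosen after its values were seen, had 197 and 201 CPM against 27.9 and 32.8, with DMSO at 54.5 and 52.5. Tfcp2l1, a factor of naive pluripotency, had 20.1 and 18.3 against 1.76 and 1.85. Lefty1, a Nodal antagonist, went the other way, with 11 and 18.8 CPM against 41.1 and 43.1, and DMSO at 184 and 202.

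Division genes were mostly higher with MS-275 than in the culture, and CDK inhibitors lay on both sides. DNA replication genes were higher in 26 of 30 cases (median log2 0.57) and mitosis genes in 21 of 26 (0.71), and with DMSO all 30 and all 26 were called higher than day 8. Against DMSO, most of them were lower with MS-275. Replication genes were called lower in 19 cases and higher in 5 (median log2 −0.40), mitosis genes in 18 and 3 (−0.34). Mki67 and Top2a, named by rule for their change against day 8, do not stand for that majority. Mki67, which marks cycling cells, had 924 and 966 CPM with MS-275, 812 and 853 with DMSO and 274 and 314 at day 8 (log2 1.68, SE 0.06, edgeR adjusted p = 2.41e-13). Top2a, a topoisomerase of dividing cells, had 2200 and 2248 CPM against 408 and 484. Cdkn1a, which encodes the cycle inhibitor p21, had 51.2 and 43.9 CPM with MS-275, 11.9 and 10.3 with DMSO and 6.46 and 6.73 at day 8 (log2 2.85, SE 0.12, edgeR adjusted p = 1.45e-12). Cdkn2a, another inhibitor, had 14.2 and 12.6 CPM against 1.19 and 1.27. Of 23 CDK inhibitors and p53 targets, 14 were called higher than day 8, 6 lower and 3 not. Among those called lower were the inhibitors Cdkn1b (76.4 and 80.9 CPM against 160 and 171), Cdkn2c (5.20 and 5.18 against 12.7 and 10.8) and Cdkn2d (18.7 and 15.6 against 31.1 and 25.3), named after their values were seen. With MS-275 Cdkn1b also stood below DMSO, at 166 and 171 CPM. Btg2, an antiproliferative gene of neurogenic progenitors, was lower, with 20.8 and 18.5 CPM against 103 and 114.

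Gene length differed between the groups of genes. The median genomic span was 21.6 kb for drug-induced genes above day 8, 44.8 kb for those below and 46.6 kb for the neuronal culture genes, against 22.3 kb for all tested genes with a position. Among neuronal culture genes it was 38.2 kb where MS-275 was under 1% of day 8, 53.9 kb where it reached 1% to 10% and 38.1 kb where it reached 50% to 200%, with no steady order by level. The part of length in the results was not tested.

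Histone marks were read from the authors' peak lists at day 2 and day 4, since no day 8 ChIP library was analysed here. H3K9ac and H3K9cr are the acetylated and crotonylated forms of lysine 9 of histone H3, H3K18la the lactylated form of lysine 18. Each mark had 1 library per day 2 condition, so there is no test between conditions. A gene was counted where a peak reached within 1000 bases of either of its ends, because the promoter table held too few of the tested genes to use starts alone. The MS-275 list of H3K9ac held 84418 peaks over 122 Mb and the DMSO list 26555 over 34.2 Mb, so the lists differ in how much of the genome they cover. The H3K9ac shares below are read beside those of all tested genes, 88.2% with MS-275 and 81.5% with DMSO.

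The shares of genes with an H3K9ac or H3K9cr peak are given by class as a description, with no test. Of the 41 genes under 1%, 65.9% had an H3K9ac peak with MS-275, 36.6% with DMSO and 75.6% in each day 4 library, where all tested genes had 84.5% and 84.3%. From 1% to 10% the shares were 89.1%, 74.8% and 90.3% and 90.0%, so with MS-275 and at day 4 this class was not below all genes, and from 10% to 50% they were 94.1% with MS-275 and 89.2% with DMSO. H3K9cr gave 56.1% with MS-275 and 41.5% with DMSO for the genes under 1%, against 87.3% and 81.4% of all tested genes. H3K18la went the other way over all tested genes, with 30.4% for MS-275 and 71.0% for DMSO, and for the genes under 1% with 14.6% and 22.0%. Of the 18 absent genes, 9 had an H3K9ac peak with MS-275, 4 with DMSO and 12 in each day 4 library. An H3K9ac peak was thus listed at 9 genes whose RNA was absent in the same condition.

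**Figure D5:**
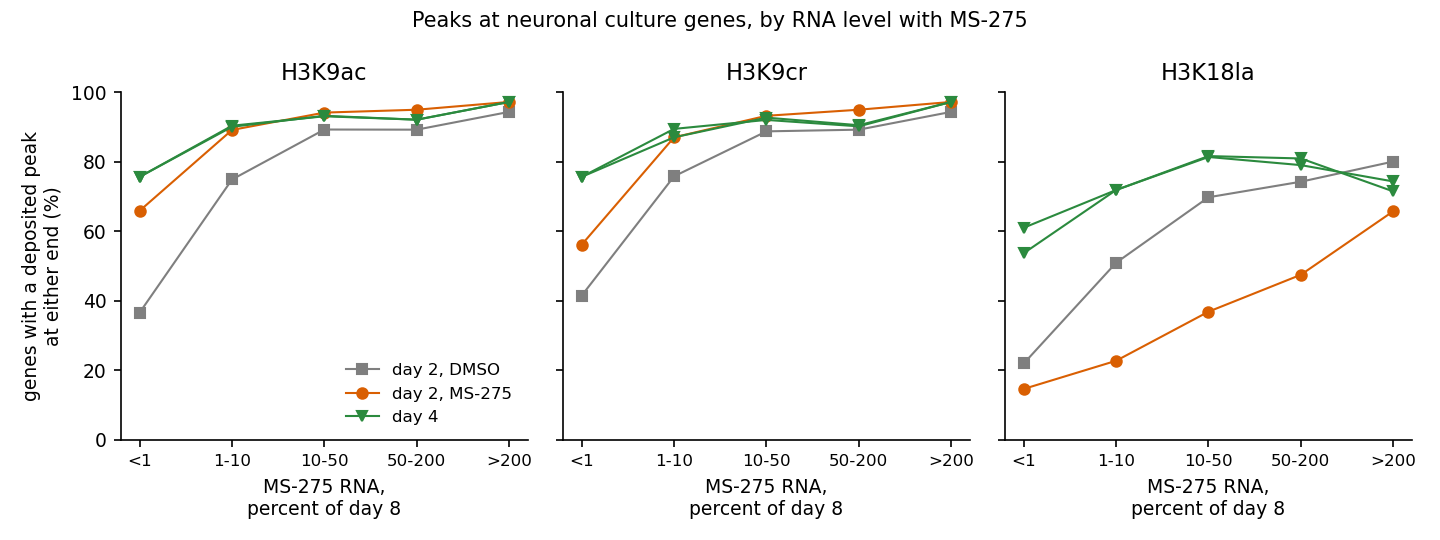
Percent of neuronal culture genes with a deposited peak within 1000 bases of either gene end (vertical axes, 0 to 100) by RNA level with MS-275 in percent of day 8 (horizontal axes), for H3K9ac, H3K9cr and H3K18la. Grey squares are DMSO, orange circles MS-275 and green triangles the 2 day 4 libraries, each line 1 library. For H3K9ac the class under 1% stands at 65.9% with MS-275 and 36.6% with DMSO, and for H3K18la the MS-275 line lies below the others in every class.

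Single genes show how marks and RNA lined up, with fold enrichment as the authors' value for each peak. The median H3K9ac enrichment of a list was 4.73 with MS-275, 13.8 with DMSO and 9.74 and 9.63 at day 4. Enrichments from different lists are thus not on 1 scale, and a lower value does not show less of the mark. Mapt, Dcx, St18 and Agtr2 were read within 1000 bases of their ends, the other genes over the printed promoter windows. At the ends of Mapt, which has no entry in the promoter table, peaks were listed with MS-275 only, and none at day 4. The enrichment was 20.3 for H3K9ac and 19.7 for H3K9cr. Peaks elsewhere in Mapt were not read. Over the Hoxa9 window printed above, MS-275 had peaks of 19.8 and 16.1 for these marks and DMSO none, and day 4 replicate 1 had an H3K9ac peak of 165. At the Hoxa9 gene ends both day 4 libraries had H3K9ac peaks, of 165 and 155. The Cldn6 window had MS-275 peaks of 15.1 and 19.6, and none with DMSO or at day 4. At the Cldn6 gene ends DMSO had an H3K9ac peak of 4.09 and an H3K18la peak of 5.95. Over the CpG-rich Tubb3 window H3K9ac was listed in all groups, with 29.9 for DMSO, 17.1 for MS-275 and 114 and 101 at day 4. The Slc17a6 window held no peak at day 2 and H3K9ac peaks of 10.4 and 6.23 at day 4. At the Slc17a6 gene ends MS-275 had an H3K9ac peak of 2.76. Dcx had an H3K9ac peak of 4.52 with MS-275, none with DMSO and 35.6 and 32.5 at day 4. St18 and Agtr2, both absent with MS-275, had no peak of these marks at their ends in any list. St18 had 2097 counts at day 4, so a gene with RNA can lack a listed peak in these windows.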

How the data were processed

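RNA-seq gave 1 table of estimated counts per gene for 10 libraries, deposited without scaling. The submitters' processing notes name Salmon 1.1.0, Bowtie2 2.4.1, MACS2 2.2.7.1, DESeq2 1.26.0 and the build GRCm38, without their roles. The annotation release and how transcripts were combined into genes are not given in the sources used here. Of 55385 identifiers, 55144 had a symbol. The deposited estimated counts were rounded to whole numbers here before the fit. In edgeR 4.0.16 (R 4.3.3), filterByExpr kept 17789 genes, TMM scaled the libraries, and 1 quasi-likelihood fit over 5 groups of 2 gave every contrast, with p-values adjusted by Benjamini-Hochberg over the tested genes and a threshold of 0.05. The test was checked on simulated data.

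The gene lists, classes and named genes were chosen with earlier results of these data known. Genes were named by rule: a panel of 28, the 6 largest rises and 6 largest falls of at least 2-fold against day 8 whose groups do not overlap, the 6 largest drug responses per class, the 8 absent genes highest at day 8, and from each of 28 lists the 3 largest called changes plus the largest one in the opposite direction, with minimum levels of 5 CPM (1 CPM for lists) and without predicted genes, mitochondrial genes and pseudogenes. Genes named outside the rule are said to be chosen after their values were seen.

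Each ChIP library has its own peak list with the column names of MACS2, per the file headers. The fold enrichment of each peak is the authors' deposited ratio, and the deposited lists began at −log10 q-values of 2.00 to 2.02. ChIP depth is unknown. Positions and promoters are RefSeq GRCm38.p6; 91.3% of tested genes had a position and 69.4% a promoter, which made the planned count at gene starts void, so both gene ends were used, an alternative chosen after seeing the data. Alternatives were DESeq2 1.42.0, other scalings and filters, a replicate block and leaving out each library. A few named genes are not reported here.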

Additional observations from a re-analysis of the deposited data

How the results depend on the processing

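Of 461 recomputed values of 30 summary results, 421 stayed within the spread between replicates or, for counts, within 1.5 times. The median level of neuronal culture genes with MS-275 (23.5% of day 8) was 25.9% without scaling factors, 24.97% with upper-quartile factors, 22.7% to 23.8% with a library left out, and 21.2% and 24.3% when chosen in 1 day 8 library and read in the other. The DMSO median (20.3%) was 19.7% with DESeq2, 20.03% without scaling, 20.003% with upper-quartile factors, 20.5% without a filter, 20.4% with only the libraries compared, 19.4% to 20.7% with a library left out, and 18.9% and 20.9% across day 8 libraries. Choosing the genes by day 8 against DMSO gave medians of 17.8% and 10.7%, 179 genes at 50% to 200% and 12 above 200% with MS-275, 0 and 0 with DMSO, and 89 genes at least 2-fold below DMSO, since that choice removes genes high in DMSO by construction. With a library left out, absent genes numbered 17 to 45 with MS-275 and 42 to 88 with DMSO. The 39 and 45 came without MS-275 replicate 1 and 2 and the 88 and 75 without DMSO replicate 1 and 2, where 3 counts over 1 library is a looser limit. They numbered 4 and 13 when absent meant no counts. Requiring 4-fold over DMSO left 1531 drug-induced genes, 1168 above day 8, 197 below, 166 not called and 131 with an interval inside 2-fold, and levels of 1120, 269 and 142 genes. Of 182 named genes, none reversed. Calls were lost for Evx1, Tdrd9, Rrm1, Plk1 and Pfkfb3 in 16 of their values and gained in 8 values of 6 genes. The replicate numbers gave a correlation of 0.113 between MS-275 and day 8 with only 2 numbers, so no pairing was assumed; the replicate block gave 6471 genes higher and 6461 lower and changed no count by over 1.5 times. Depth limits absent genes to 3 counts over 2 libraries.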

Other observations

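Over all tested genes, 36.7% were called higher than day 8 and 36.6% lower. Cholesterol synthesis genes were lower with MS-275 in 19 of 24 cases and higher in 3 (median log2 −1.09, DMSO −0.59). Insig1, a sterol sensor, had 47.2 and 41.3 CPM against 154 and 160. Of 23 glycolysis and lactate genes, 12 were called higher and 4 lower, a share of calls near that of all genes (73.2%). The glucose transporter Slc2a3 had 634 and 1089 CPM against 130 and 154, and the lactate exporter Slc16a3 114 and 167 against 26.4 and 33.1. Pfkfb3, a regulator of glycolysis, had 11.2 and 52.6 CPM in the 2 MS-275 libraries, 59.6 and 54.6 at day 8, and a log2 difference of −0.84 that became −0.12 without MS-275 replicate 1 and lost its call.

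Of 18 histone deacetylases of all classes, sirtuins included, 5 were called higher than day 8 and 8 lower, again near the share over all genes; the list's median of −0.03 turned to 0.06 without scaling factors and 0.15 with upper-quartile factors. Hdac1, a class I member, had 416 and 397 CPM with MS-275, 245 and 244 with DMSO and 140 and 140 at day 8 (log2 1.53, SE 0.05, edgeR adjusted p = 6.47e-14). Hdac2, its close relative, chosen after its values were seen, had 153 and 164 CPM against 270 and 264. Rest, the repressor of neuronal genes, had 167 and 159 CPM with MS-275, 107 and 115 with DMSO and 56.6 and 57.3 at day 8. The immediate early genes Egr1 and Fos differed between the day 8 libraries, at 350 and 104 CPM and at 45.0 and 12.1. With MS-275 Egr1 had 35.0 and 33.9 CPM; its log2 difference of −2.72 became −1.58 without day 8 replicate 1 and −3.33 without replicate 2.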
